A study of Mus musculus with 14 samples.

Results

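The genes described here are 33 genes of protein folding, quality control and degradation in the endoplasmic reticulum, taken as a list of named genes, with no threshold on a measured value. A gene was taken as measured where a probe's transcript accession led to its symbol, and 30 of the 33 were found in this way, on 56 probes. All 30 passed the filter on dim probes, among 32463 genes tested in all. Of these, 16457 had a symbol, and the rest are accessions without a matched symbol, each counted as a gene of its own. Shares and medians over all genes below include both kinds, and were not taken over the genes with a symbol alone. Pdia3, Dnajb11 and Atf6 were not matched to a probe and were not analysed here. By role, 8 of the measured genes are chaperones and their co-factors, 4 are lectin chaperones or disulphide isomerases, 3 are sensors and regulators, 10 belong to degradation and quality control, and 5 to translocation and export.

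Secreted and membrane proteins enter the endoplasmic reticulum through the Sec61 channel, and are folded there by chaperones such as BiP, by the lectins calnexin and calreticulin, and by disulphide isomerases. When unfolded protein accumulates, the sensors IRE1, ATF6 and PERK start the unfolded protein response, in which IRE1 splices the Xbp1 message and ATF6 and XBP1 raise the genes of folding and degradation. Proteins that fail to fold are trimmed by EDEM mannosidase-like proteins, recognised by OS-9, and passed through the SEL1L and HRD1 complex to the proteasome. Secretory blood cells such as granulocytes and mast cells load granules with proteins made by this route.

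RNA was measured on 14 single-colour (Cy3) Agilent mouse arrays. All samples came from FDCPmix, an interleukin-3-dependent multipotent progenitor line of mouse bone marrow, kept in maintenance culture with horse serum and interleukin-3-conditioned medium and sorted by surface antigens. The groups were Kit-Gr1- cells (3 arrays), Gr1+ cells (3), Kit+Gr1-Sca1hi cells (3), Kit+Gr1-Sca1lo cells (3) and unfractionated cells (2). The submitters describe them as biological replicates. Every fraction is therefore a part of 1 cell line under 1 culture condition, with no treated or mutant group, and a fraction is defined by its gate and not by a purified cell type. Kit is the receptor for stem cell factor, Gr1 is carried by granulocytes and their precursors, and Sca1 is an antigen of early progenitors.

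Values are the log2 of the processed signal minus the array's own 75th percentile, so that a value of 0 is the level of that percentile. They place 1 probe on different arrays on a common scale, and are not used to set 1 gene above another. The arrays lay on 4 slides. On 4 arrays the signals were compressed, with an interquartile range under 3.5 on the log2 scale, namely 1.78 on unfractionated replicate 1, 2.38 on Sca1hi replicate 3, 3.04 on Gr1+ replicate 3 and 3.42 on Sca1lo replicate 3. The others ran between 4.17 and 4.92. For the medians over the 30 genes and for several single genes, values without the 4 compressed arrays are also given. Of the gate antigens, Kit averaged -1.83 in Kit-Gr1- cells, 0.67 in Gr1+ cells, 0.38 in Sca1hi cells and 0.37 in Sca1lo cells. Ly6a, which encodes Sca1, averaged -2.53 in Kit-Gr1- cells, 2.73 in Gr1+ cells, -0.26 in Sca1hi cells and -2.58 in Sca1lo cells. Ly6c1, among the antigens that Gr1 antibodies bind, averaged -1.21 in Kit-Gr1- cells, 6.16 in Gr1+ cells, -0.80 in Sca1hi cells and -0.37 in Sca1lo cells, and Ly6g was not matched to a probe. Kit message was thus low in Kit-Gr1- cells but not in Gr1+ cells, and the Sca1 message was higher in Gr1+ than in Sca1hi cells. With 2 or 3 arrays in a group, differences well inside the spread of single arrays cannot be resolved.

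The endoplasmic reticulum stress response element, ERSE, is the promoter sequence that ATF6 and XBP1 are known to act through, and it is shown first because it divides the 30 genes by a feature that no array value was used to define. Promoter windows of 300 bases, from 250 bases before to 50 after the start of each gene, came from RefSeq (GRCm38.p6) and were held for 28 of the 33 genes, in 29 windows. The letters CCAAT and CCACG with 9 bases of any kind between them were searched on both strands. They were found in 9 of the 29 windows, against 39 of 32851 windows of all genes (0.119%). The shorter ERSE-II, ATTGG and CCACG with 1 base between them, was found in 2 of the 29, in Herpud1 and in the unmeasured Dnajb11, against 12 of all windows (0.0365%). In a wider list of 71 genes of the same pathway, described further below, ERSE was found in 1 of 69 windows and ERSE-II in 0. The XBP1-binding core TGACGTG was also searched on both strands and was found in Hspa5 and Sec24d, against 2.01% of all windows. The ERSE and ERSE-II matches of the measured genes among the 33 read as follows, 5′ to 3′ on the strand where the letters were found. Fixed letters are in capitals, and the last line is the ERSE-II of Herpud1.
Hspa5, chr2:34772025-34772043: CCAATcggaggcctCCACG
Hsp90b1, chr10:86705638-86705656: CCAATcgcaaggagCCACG
Hsp90b1, chr10:86705533-86705551: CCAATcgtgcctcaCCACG
Dnajc3, chr14:118937827-118937845: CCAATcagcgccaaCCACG
Creld2, chr15:88819520-88819538: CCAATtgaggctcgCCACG
Calr, chr8:84847075-84847093: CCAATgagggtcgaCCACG
Canx, chr11:50325800-50325818: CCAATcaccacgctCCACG
Pdia6, chr12:17266491-17266509: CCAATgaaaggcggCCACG
Syvn1, chr19:6046532-6046550: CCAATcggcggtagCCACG
Derl3, chr10:75893242-75893260: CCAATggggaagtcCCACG
Herpud1, chr8:94386377-94386387: ATTGGgCCACG

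The matches were spread over chaperones (Hspa5, Hsp90b1, Dnajc3, Creld2), lectins (Calr, Canx), a disulphide isomerase (Pdia6) and degradation genes (Syvn1, Derl3). Hsp90b1 held the element on both strands. A match is a string of letters and not evidence of binding. The windows of Hspa5 and Hsp90b1, given on the strand of the gene with ERSE letters in capitals, show where the element sits relative to the start, which is the base after the first 250. In Hspa5 it covers bases -65 to -47 from the start, and in Hsp90b1 bases -212 to -194 and, on the opposite strand, -107 to -89.
Hspa5, chr2:34771840-34772139: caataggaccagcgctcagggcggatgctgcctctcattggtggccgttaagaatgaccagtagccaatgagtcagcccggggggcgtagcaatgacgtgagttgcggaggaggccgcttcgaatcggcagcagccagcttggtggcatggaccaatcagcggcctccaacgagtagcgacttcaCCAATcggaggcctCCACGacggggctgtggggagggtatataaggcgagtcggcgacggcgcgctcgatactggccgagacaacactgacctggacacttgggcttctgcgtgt
Hsp90b1, chr10:86705395-86705694: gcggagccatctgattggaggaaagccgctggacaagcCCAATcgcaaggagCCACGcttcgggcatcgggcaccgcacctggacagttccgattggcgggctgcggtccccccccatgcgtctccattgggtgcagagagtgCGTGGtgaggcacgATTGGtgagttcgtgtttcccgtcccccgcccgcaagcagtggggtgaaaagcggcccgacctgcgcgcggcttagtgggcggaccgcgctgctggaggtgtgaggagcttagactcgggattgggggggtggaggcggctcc

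Across the sorted fractions, no member passed the test in any of the 4 comparisons, and the data are described below as levels with their spread. A gene was called changed at an adjusted p under 0.05 and a fold of at least 2, in limma fitted over all 14 arrays. The unfractionated arrays, which differ widely from each other, enter the standard errors, intervals and p-values of that fit. By group mean, 13 of the 30 genes were highest in Kit-Gr1- cells, 13 in Gr1+ cells, 4 in Sca1lo cells and 0 in Sca1hi cells. The lowest mean fell in Sca1hi cells for 23 genes, in Sca1lo cells for 4, in Kit-Gr1- cells for 3 and in Gr1+ cells for 0. The Sca1hi means include the compressed replicate 3. These counts were not made over all genes or without the compressed arrays. The median over the 30 genes was 3.35, 3.71 and 3.63 on the Kit-Gr1- arrays and 3.66, 3.71 and 3.57 on the Gr1+ arrays. It was 2.91, 3.42 and 2.35 on the Sca1hi arrays, 3.11, 3.28 and 3.04 on the Sca1lo arrays, and 0.53 and 3.79 on the unfractionated ones. The lowest of these, unfractionated replicate 1 and Sca1hi replicate 3, are the most compressed arrays. After quantile normalization the medians were 13.35 to 13.57 on Kit-Gr1- arrays and 13.56 to 13.73 on Gr1+ arrays, above the 12.98 to 13.23 of all 6 Kit+Gr1- arrays, and still 11.55 on unfractionated replicate 1.

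**Figure D1:**
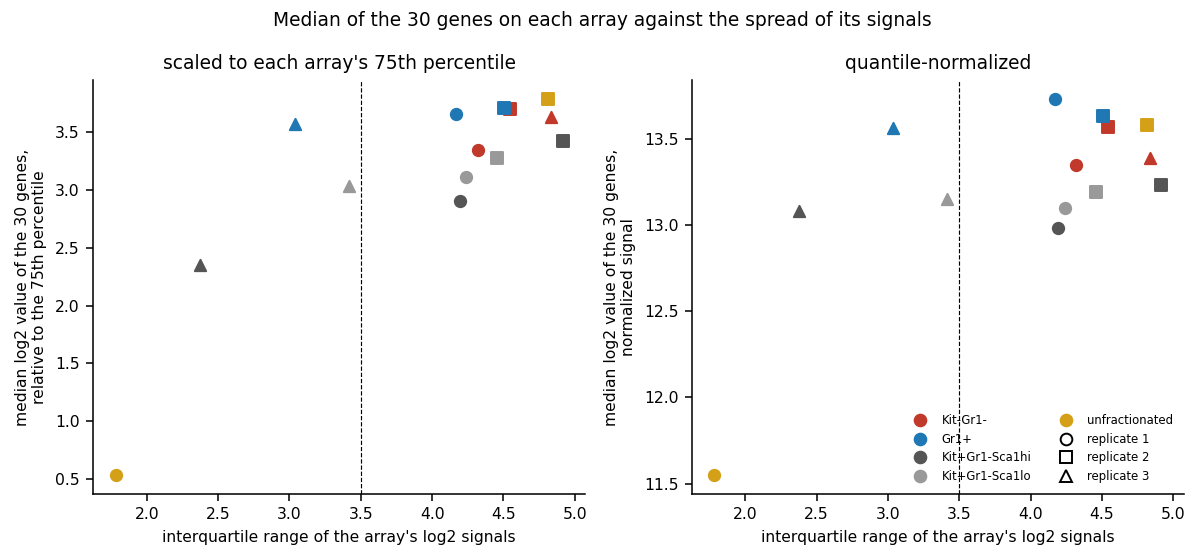
Median log2 value of the 30 genes on each array (vertical axis) against the interquartile range of all log2 signals of that array (horizontal axis), with values scaled to the 75th percentile on the left and quantile-normalized on the right. Colours mark the groups, shapes the replicates, and the dashed line the range of 3.5 under which 4 arrays fall; unfractionated replicate 1 lies lowest in both panels, at 0.53 and 11.55.

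The first comparison set Kit-Gr1- cells, which carry neither Kit nor Gr1 on the surface, against the mean of the Kit+Gr1- fractions. Chaperone genes had higher fitted levels in Kit-Gr1- cells, with positive differences for 8 of 8 and a median log2 difference of 0.54. None passed the test. Their median was 0.33 without the 4 compressed arrays (7 of 8 positive), 0.31 after quantile normalization (8 of 8) and 0.27 with slide as a block (7 of 8). Over the 30 genes, 0 were called in either direction, against 0.0554% of all genes higher and 0.0123% lower. An unadjusted p under 0.05 in limma was found for 0 of the 30, against 658 of all 32463 genes. The median difference of the 30 was 0.30, with 27 positive, against a median of -0.25 over all genes, of which 29.31% were positive. That offset depends on the scaling: with quantile normalization the medians were 0.14 and 0.00, with slide as a block 0.13 and -0.06, and without the 4 compressed arrays 0.16 and -0.09. The number of positive differences was 21 of 30 after quantile normalization, 19 with slide as a block and 21 without the compressed arrays. Within slides the members' median was 0.04 on slide 1, 0.23 on slide 2 and 0.11 on slide 3. In such bulk RNA, fewer cells of a type and less RNA per cell cannot be told apart.

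Creld2, a protein of the reticulum that is induced by stress, had the largest difference of this comparison. It measured 4.77, 5.50 and 4.95 in Kit-Gr1- cells, 4.90, 4.65 and 4.60 in Gr1+ cells, 4.22, 4.55 and 3.45 in Sca1hi cells, 4.58, 4.83 and 4.43 in Sca1lo cells, and 1.63 and 5.40 in unfractionated cells. Kit-Gr1- replicate 2 was the highest of the sorted arrays, and Kit-Gr1- replicate 1 lay below the highest Sca1lo array. The difference from Kit+Gr1- cells was 0.73 ± 0.63 (SE, adjusted p = 0.906, 95% interval -0.63 to 2.08), and 0.52 without the compressed arrays. Over the sorted arrays alone the difference was again 0.73, with an SE of 0.24 (limma, adjusted p = 0.414).

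Hspa5 encodes BiP, the HSP70 chaperone that also holds the sensors inactive. It measured 5.24, 5.89 and 5.56 in Kit-Gr1- cells, 5.20, 5.57 and 5.34 in Gr1+ cells, 4.99, 5.22 and 4.06 in Sca1hi cells, 5.09, 5.66 and 4.90 in Sca1lo cells, and 1.96 and 5.93 in unfractionated cells. All 4 sorted fractions overlapped, and Sca1hi replicate 3 was the lowest sorted array. Kit-Gr1- cells differed from Kit+Gr1- cells by 0.58 ± 0.68 (SE, adjusted p = 0.906, 95% interval -0.90 to 2.05), and by 0.32 without the compressed arrays. Over the sorted arrays alone the SE of the 0.58 was 0.27 (limma, adjusted p = 0.687). Hsp90b1, which encodes the HSP90 paralogue GRP94, measured 5.15, 5.79 and 5.45 in Kit-Gr1- cells, 5.30, 5.49 and 5.29 in Gr1+ cells, 4.80, 5.20 and 4.26 in Sca1hi cells, 4.98, 5.46 and 5.02 in Sca1lo cells, and 2.13 and 5.74 in unfractionated cells. Its Kit-Gr1- and Kit+Gr1- arrays also overlapped, with a difference of 0.50 ± 0.62 (SE, adjusted p = 0.906).

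Among degradation genes, Derl1, a derlin of the machinery that moves proteins out of the reticulum, had a difference of 0.71 ± 0.50 (SE, adjusted p = 0.906), which was 0.48 without the compressed arrays (adjusted p = 0.174). It measured 3.54, 3.5 and 3.58 in Kit-Gr1- cells, 3.39, 3.33 and 3.18 in Gr1+ cells, 2.82, 3.15 and 1.90 in Sca1hi cells, 3.06, 3.21 and 2.84 in Sca1lo cells, and 0.50 and 3.56 in unfractionated cells. All 3 Kit-Gr1- arrays lay above all 6 Kit+Gr1- arrays. Such separation held for 4 of the 30 genes in the higher direction (Derl1, Syvn1, Sel1l and Ufm1, the ubiquitin-like modifier), against 3.33% of all genes, and for 0 in the lower direction, against 2.46%. Quantile-normalized values also gave 4 higher, against 3.73%, and 0 lower, against 2.59%. For Ufm1 the values were 1.07, 1.27 and 1.22 in Kit-Gr1- cells, against 0.60, 1.01 and 0.23 in Sca1hi and 0.87, 1.05 and 0.72 in Sca1lo cells. Its other probe differed by 0.10, against 0.44 for the probe used.

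Among sensors and regulators 1 of 3 differences was positive, with a median of -0.15. Ern1, which encodes the sensor IRE1, measured -0.19, -0.10 and -0.37 in Kit-Gr1- cells, 0.48, -0.01 and -0.07 in Gr1+ cells, 0.04, -0.01 and -0.13 in Sca1hi cells, 0.20, 0.08 and 0.30 in Sca1lo cells, and -0.40 and -0.13 in unfractionated cells. Kit-Gr1- arrays lay below all Gr1+ arrays, and overlapped only Sca1hi replicate 3 among the Kit+Gr1- arrays. The difference from Kit+Gr1- cells was -0.30 ± 0.19 (SE, adjusted p = 0.906), which became 0.02 when arrays were scaled to their medians. Xbp1, which encodes the transcription factor made from the IRE1-spliced message, measured 2.08, 2.53 and 2.65 in Kit-Gr1- cells, 2.26, 3.01 and 2.98 in Gr1+ cells, 2.30, 2.76 and 2.03 in Sca1hi cells, 1.94, 2.57 and 2.52 in Sca1lo cells, and -0.21 and 2.65 in unfractionated cells. The fractions overlapped, with a difference of 0.06 ± 0.48 in Kit-Gr1- cells (SE, adjusted p = 0.965), which was -0.13 after quantile normalization. The files do not say whether the probe separates spliced from unspliced Xbp1, and the levels are not read as splicing.

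**Figure D2:**
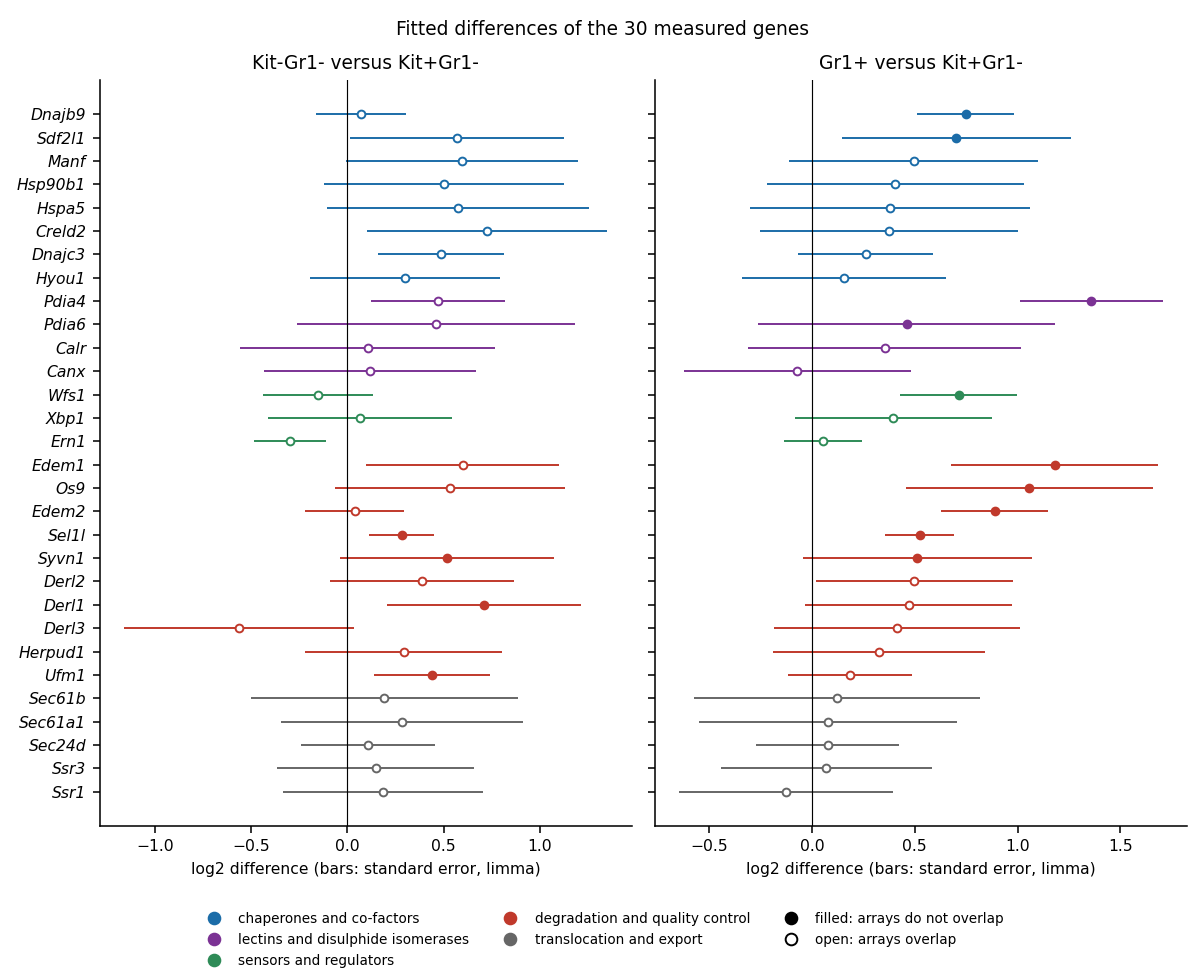
Log2 differences (horizontal axis) of the 30 measured genes in Kit-Gr1- cells on the left and Gr1+ cells on the right, each against Kit+Gr1- cells, with standard errors from limma as bars. Colours mark the roles and filled points the genes whose arrays do not overlap between groups, 4 on the left and 10 on the right; Pdia4, at 1.36, has the largest difference.

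The comparison of Gr1+ cells with Kit+Gr1- cells, which sets the granulocyte antigen against the progenitor fractions, held the largest differences of the 30 genes. They stood in single genes of several roles. The isomerases Pdia4 and Pdia6 differed by 1.36 and 0.46, and the 10 degradation genes by 0.19 to 1.18. The 5 translocation and export genes lay between -0.12 and 0.12. In the fit over all 14 arrays 0 of 30 genes were called, against 1.38% of all genes higher and 0.625% lower. In that limma fit 6 of the 30 had an unadjusted p under 0.05, against 2733 of all 32463 genes. Gr1+ arrays lay above all Kit+Gr1- arrays with a value for 10 of the 30 genes, against 5.89% of all genes. They lay below them for 0, against 3.86%. For Pdia6 only 5 of the 6 Kit+Gr1- arrays had a value. Its lowest Gr1+ array, at 6.13, stood narrowly above the highest of these, at 6.04. The 10 were Dnajb9, Sdf2l1, Pdia4, Pdia6, Wfs1, Edem1, Edem2, Syvn1, Sel1l and Os9, that is 2 of 8 chaperones, 2 of 4 lectins and isomerases, 1 of 3 sensors and regulators, 5 of 10 degradation genes and 0 of 5 translocation genes. Quantile-normalized values gave 11 higher, against 6.73%, and 1 lower, Ssr1, against 7.61%. There Pdia6 overlapped, and Derl1 and Derl2 did not.

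The calls in this comparison depended on the unfractionated arrays, which are in neither group but enter the estimate of spread and the filter on dim probes. The genes tested numbered 32463 with them and 31244 without. When the 12 sorted arrays were fitted alone, 3 of the 30 genes rose in Gr1+ cells (Pdia4, Edem1 and Os9), against 3.04% of all genes higher and 1.29% lower. Leaving out either unfractionated replicate also gave 3. Without all 4 compressed arrays Pdia4, at 1.45, and Edem1, at 1.18, were called, against 3.76% of all genes higher and 3.12% lower. With array weights 4 were called, Edem2 being the other, against 4.17% higher and 2.58% lower. After quantile normalization 1 was called, Pdia4, against 1.23% higher and 0.595% lower.

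Pdia4, a disulphide isomerase known as ERp72, had the largest difference. It measured 0.22, 1.37 and 0.97 in Kit-Gr1- cells, 2.08, 1.65 and 1.49 in Gr1+ cells, 0.20, 0.72 and 0.27 in Sca1hi cells, 0.07, 0.69 and 0.34 in Sca1lo cells, and 0.22 and 1.84 in unfractionated cells. The 3 Gr1+ arrays lay above every other sorted array. Gr1+ cells exceeded Kit+Gr1- cells by 1.36 ± 0.35 (SE, 2.56-fold, 95% interval 0.61 to 2.11), with an adjusted p of 0.0736 over all arrays and 0.00371 over the sorted arrays alone. Within slides it was 1.95 on slide 1, 0.96 on slide 2 and 0.77 on slide 3. Over the alternatives tried, its adjusted p ran between 0.000758 and 1, and the call was made in 7 of 26.

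Edem1, which marks misfolded glycoproteins for degradation, measured 2.02, 2.73 and 2.45 in Kit-Gr1- cells, 3.16, 3.01 and 2.77 in Gr1+ cells, 1.64, 2.04 and 1.26 in Sca1hi cells, 1.71, 2.22 and 1.93 in Sca1lo cells, and -0.12 and 3.05 in unfractionated cells. All 3 Gr1+ arrays lay above the other sorted arrays. Relative to Kit+Gr1- cells the difference was 1.18 ± 0.50 (SE, 2.27-fold), with an adjusted p of 0.484 over all arrays and 0.00292 over the sorted arrays alone. It was 1.49, 0.79 and 0.73 within slides 1, 2 and 3. The gene has 3 probes, and their differences ran between 0.28 and 1.18. In Kit-Gr1- against Kit+Gr1- cells they ran between -0.11 and 0.60. The probe used was the brightest.

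The promoter windows of Pdia4 and Edem1, the genes with the largest differences, are printed because neither holds ERSE, ERSE-II or the TGACGTG core, which says only that these letters are not in this window.
Pdia4, chr6:47813463-47813762: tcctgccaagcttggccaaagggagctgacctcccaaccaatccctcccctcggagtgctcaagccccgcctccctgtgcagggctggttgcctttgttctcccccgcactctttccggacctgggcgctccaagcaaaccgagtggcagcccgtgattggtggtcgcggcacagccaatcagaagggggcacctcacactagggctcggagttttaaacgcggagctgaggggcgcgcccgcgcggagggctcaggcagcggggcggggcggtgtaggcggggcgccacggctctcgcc
Edem1, chr6:108828391-108828690: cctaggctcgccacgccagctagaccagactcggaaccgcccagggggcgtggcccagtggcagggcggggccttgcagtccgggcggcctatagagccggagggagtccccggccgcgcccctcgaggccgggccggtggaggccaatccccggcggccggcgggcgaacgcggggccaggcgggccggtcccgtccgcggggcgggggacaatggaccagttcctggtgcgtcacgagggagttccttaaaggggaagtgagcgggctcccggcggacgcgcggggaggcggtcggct

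Os9, Edem2 and Sel1l were singled out after their values were seen. Os9 encodes the lectin that delivers glycoproteins to the degradation complex. It measured 2.94, 3.77 and 3.91 in Kit-Gr1- cells, 4.15, 4.08 and 3.96 in Gr1+ cells, 2.88, 3.60 and 2.42 in Sca1hi cells, 2.88, 3.28 and 2.97 in Sca1lo cells, and 0.44 and 4.14 in unfractionated cells. Gr1+ arrays lay narrowly above the highest Kit-Gr1- array and above all Kit+Gr1- arrays. The difference from Kit+Gr1- cells was 1.06 ± 0.60 (SE, 2.08-fold), with an adjusted p of 0.881 over all arrays and 0.0237 over the sorted arrays. Without the compressed arrays it was 0.95 (adjusted p = 0.0580). It was 1.27, 0.80 and 0.36 within slides 1, 2 and 3. The 2 probes of the gene gave 0.69 and 1.06, the latter being the probe used.

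Edem2, the relative of Edem1 that starts mannose trimming in human cells, measured -0.07, 0.59 and 0.61 in Kit-Gr1- cells, 1.13, 1.27 and 1.29 in Gr1+ cells, 0.28, 0.61 and 0.27 in Sca1hi cells, -0.10, 0.57 and 0.42 in Sca1lo cells, and -0.16 and 0.83 in unfractionated cells. The Gr1+ arrays stood apart from all others, and the remaining fractions overlapped. Set against Kit+Gr1- cells it was higher by 0.89 ± 0.26 (SE, 1.85-fold, 95% interval 0.33 to 1.45). Its adjusted p was 0.134 over all arrays and 0.0134 over the sorted arrays, with a fold below the threshold in both. On slides 1, 2 and 3 the values were 1.04, 0.70 and 0.67.

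Sel1l, the adaptor of the HRD1 complex, measured -0.35, -0.21 and -0.31 in Kit-Gr1- cells, -0.10, -0.01 and -0.03 in Gr1+ cells, -0.70, -0.51 and -0.65 in Sca1hi cells, -0.52, -0.45 and -0.59 in Sca1lo cells, and -0.32 and -0.09 in unfractionated cells. Neither Gr1+ nor Kit-Gr1- arrays overlapped the Kit+Gr1- arrays, or each other. The difference between Gr1+ and Kit+Gr1- cells was small, 0.52 ± 0.17 (SE, 1.44-fold, adjusted p = 0.200), and was 0.51, 0.44 and 0.48 on slides 1, 2 and 3.

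Syvn1, which encodes the ubiquitin ligase HRD1 itself, measured 4.00, 4.34 and 4.23 in Kit-Gr1- cells, 4.35, 4.15 and 4.05 in Gr1+ cells, 3.69, 3.90 and 2.91 in Sca1hi cells, 3.92, 3.89 and 3.70 in Sca1lo cells, and 0.97 and 4.43 in unfractionated cells. Both Kit-Gr1- and Gr1+ arrays lay above the Kit+Gr1- arrays, by 0.52 ± 0.56 in Kit-Gr1- cells and 0.51 ± 0.56 in Gr1+ cells (SE). Neither difference passed the test. The gene's other probe differed the other way, by -0.22 in Kit-Gr1- cells and -0.23 in Gr1+ cells. Herpud1, a membrane partner of HRD1, measured 3.51, 3.67 and 3.63 in Kit-Gr1- cells, 3.74, 3.75 and 3.43 in Gr1+ cells, 3.60, 3.53 and 2.51 in Sca1hi cells, 3.60, 3.46 and 3.17 in Sca1lo cells, and 0.56 and 3.67 in unfractionated cells. Its fractions overlapped, with a Gr1+ difference of 0.33 ± 0.51 (SE, 95% interval -0.78 to 1.44).

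**Figure D3:**
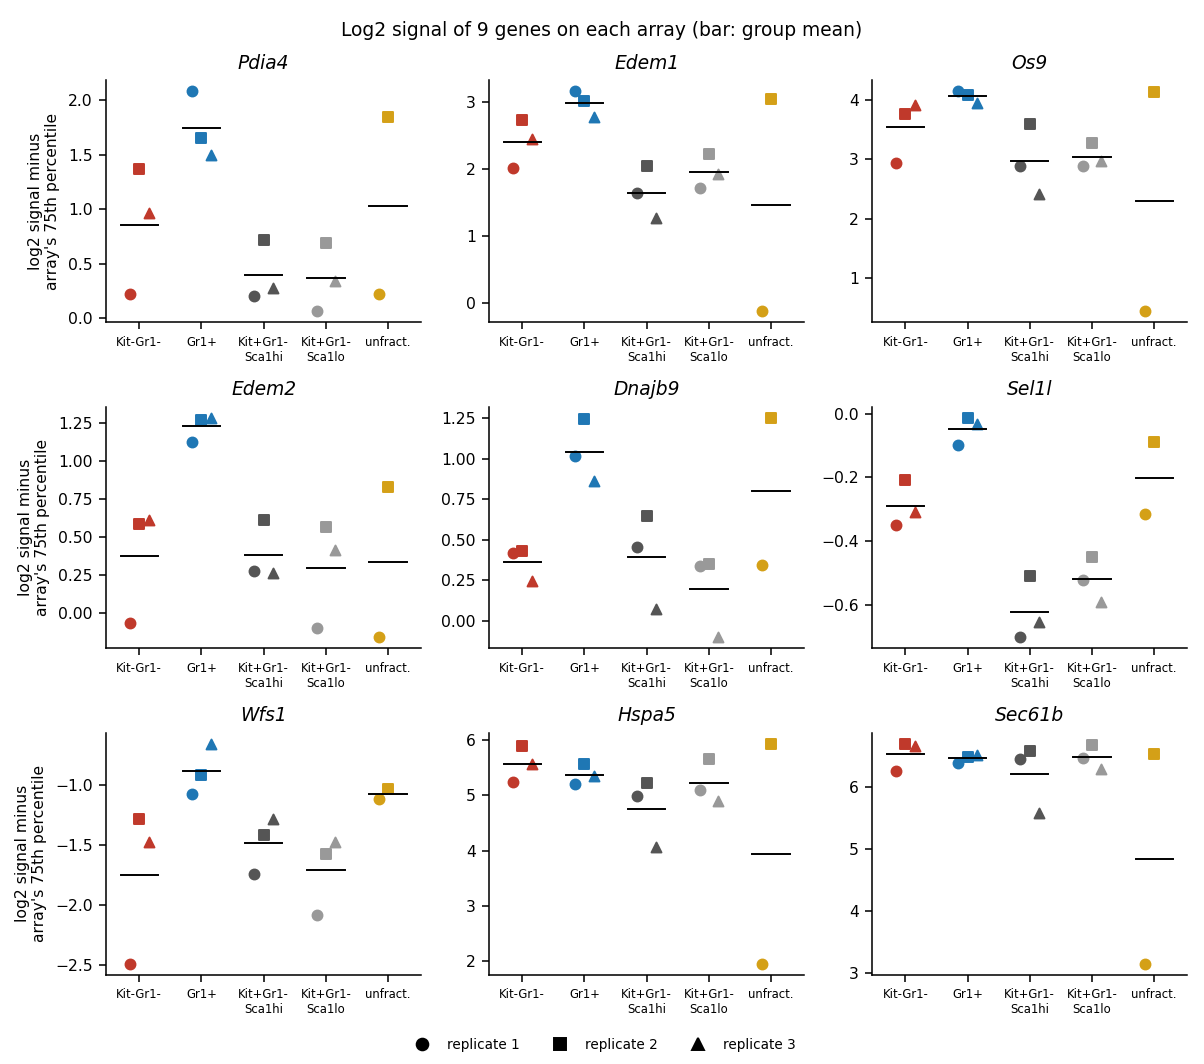
Log2 signal relative to the array's 75th percentile (vertical axis) of 9 genes on each of the 14 arrays, by group (horizontal axis), with shapes for replicates and a bar at the group mean. For Pdia4, Edem1, Os9, Edem2, Dnajb9, Sel1l and Wfs1 the Gr1+ arrays lie above all Kit+Gr1- arrays, and for Hspa5 and Sec61b the sorted groups overlap.

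Dnajb9, the BiP co-chaperone ERdj4, was the chaperone gene with the largest Gr1+ difference. It measured 0.42, 0.43 and 0.24 in Kit-Gr1- cells, 1.02, 1.24 and 0.86 in Gr1+ cells, 0.46, 0.65 and 0.07 in Sca1hi cells, 0.34, 0.35 and -0.10 in Sca1lo cells, and 0.34 and 1.25 in unfractionated cells. Gr1+ arrays lay above all other sorted arrays. Against Kit+Gr1- cells the difference was 0.75 ± 0.23 (SE, 1.68-fold, 95% interval 0.24 to 1.25), with an adjusted p of 0.185 over all arrays and 0.0172 over the sorted arrays. Its 3 probes gave 0.64 to 0.75, and the values on slides 1, 2 and 3 were 0.62, 0.89 and 0.21.

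Sdf2l1, which associates with BiP and its co-chaperones, measured 3.31, 3.94 and 3.68 in Kit-Gr1- cells, 3.94, 3.67 and 3.70 in Gr1+ cells, 2.94, 3.32 and 2.28 in Sca1hi cells, 3.17, 3.62 and 3.10 in Sca1lo cells, and 0.48 and 3.95 in unfractionated cells. The gap between the lowest Gr1+ array and the highest Sca1lo array was narrow, and the difference of 0.70 ± 0.56 (SE) had an adjusted p of 1. Hspa5, whose values are given above, differed between Gr1+ and Kit+Gr1- cells by 0.38 ± 0.68 (SE) in the fit over all arrays. The 95% interval of that fit, -1.09 to 1.85, holds more than 2-fold either way. Over the sorted arrays alone the difference was again 0.38, with an SE of 0.27. Hsp90b1 differed by 0.41 ± 0.62 (SE, 95% interval -0.94 to 1.75). The other 3 chaperone genes, Hyou1, Dnajc3 and Manf, had Gr1+ differences between 0.15 and 0.50, and Kit-Gr1- differences between 0.30 and 0.60, all with overlapping arrays.

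Calr, the lectin chaperone calreticulin, measured 5.31, 6.27 and 6.09 in Kit-Gr1- cells, 6.24, 6.09 and 6.09 in Gr1+ cells, 5.60, 6.24 and 5.13 in Sca1hi cells, 5.72, 6.23 and 5.77 in Sca1lo cells, and 2.91 and 6.30 in unfractionated cells. The fractions overlapped, with a Gr1+ difference of 0.36 ± 0.66 (SE, adjusted p = 1). Pdia6, another isomerase, had 1 spot left out as an outlier on Sca1lo replicate 2, so that 13 arrays entered its fit and slide 2 gave no value. Its Gr1+ difference was 0.46 ± 0.72 (SE, adjusted p = 1). Canx, the membrane-bound lectin calnexin, differed by -0.07 ± 0.55 in Gr1+ cells and by 0.12 ± 0.55 in Kit-Gr1- cells (SE), and after quantile normalization by -0.20 in Gr1+ cells and -0.11 in Kit-Gr1- cells.

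Wfs1, the membrane protein wolframin that restrains ATF6 in pancreatic beta cells, measured -2.49, -1.28 and -1.48 in Kit-Gr1- cells, -1.07, -0.92 and -0.66 in Gr1+ cells, -1.74, -1.42 and -1.29 in Sca1hi cells, -2.08, -1.57 and -1.48 in Sca1lo cells, and -1.12 and -1.03 in unfractionated cells. Gr1+ arrays lay above all other sorted arrays. The difference from Kit+Gr1- cells was 0.71 ± 0.29 (SE, 1.64-fold, adjusted p = 0.415), and 0.84, 0.66 and 0.76 on slides 1, 2 and 3. Ern1 differed by 0.06 ± 0.19 and Xbp1 by 0.40 ± 0.48 (SE), both with overlapping arrays.

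Sec61a1, the channel subunit through which proteins enter the reticulum, measured 5.60, 6.17 and 6.03 in Kit-Gr1- cells, 5.87, 5.65 and 5.67 in Gr1+ cells, 5.69, 5.91 and 4.82 in Sca1hi cells, 5.85, 6.03 and 5.59 in Sca1lo cells, and 2.73 and 6.01 in unfractionated cells. The fractions overlapped. The Gr1+ difference of 0.08 ± 0.63 (SE, 95% interval -1.28 to 1.44) was -0.11 after quantile normalization. The 3 probes of the gene gave -0.21 to 0.08 in Gr1+ cells and -0.37 to 0.285 in Kit-Gr1- cells. Ssr1, a subunit of the translocon-associated complex, measured 4.13, 4.59 and 4.47 in Kit-Gr1- cells, 3.98, 4.07 and 4.22 in Gr1+ cells, 4.21, 4.51 and 3.5 in Sca1hi cells, 4.36, 4.52 and 4.18 in Sca1lo cells, and 1.23 and 4.28 in unfractionated cells. Its difference of -0.12 ± 0.52 (SE, adjusted p = 1) was the lowest of the 30. In Kit-Gr1- cells the 2 probes of Ssr1 gave -0.22 and 0.18. Sec61b, Ssr3 and the export coat gene Sec24d differed by 0.07 to 0.12 in Gr1+ cells, and after quantile normalization Sec61b was -0.087 and Ssr3 -0.045. Within slides the 5 translocation and export genes lay between -0.30 and 0.26 on slide 1, where Sec24d was the highest, and all were below 0 on slides 2 and 3, as the plot by slide shows.

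**Figure D4:**
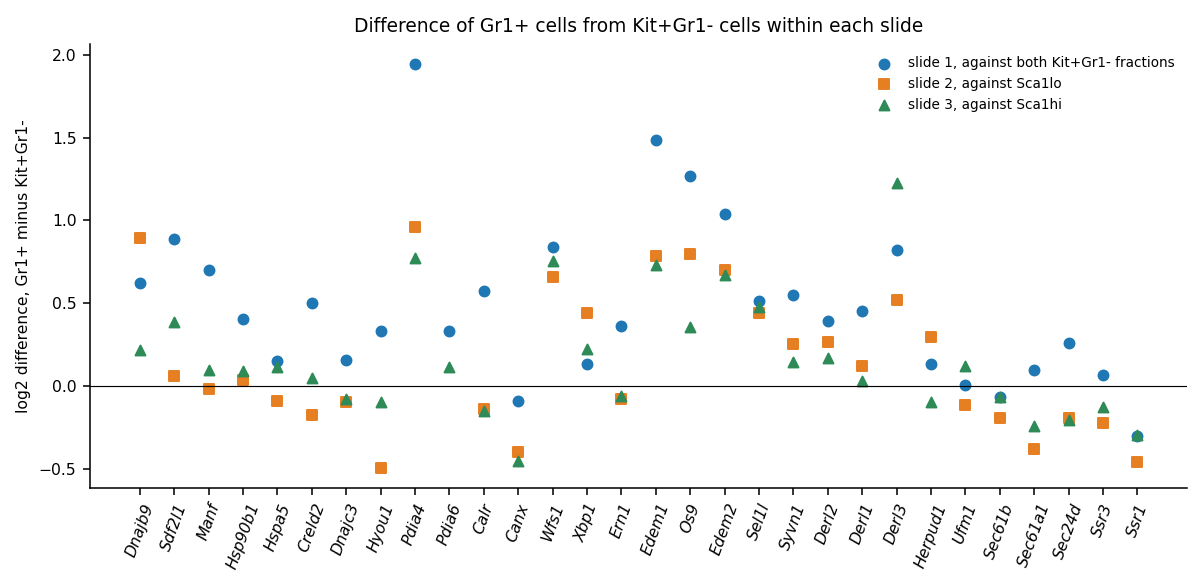
Log2 difference between Gr1+ and Kit+Gr1- cells (vertical axis) within slides 1, 2 and 3 for each of the 30 genes (horizontal axis, in order of role); slide 2 held no Sca1hi array and slide 3 no Sca1lo array. Pdia4, Edem1, Os9, Edem2, Dnajb9, Wfs1 and Sel1l are above 0 on all 3 slides. So are Hsp90b1, Sdf2l1, Xbp1, Syvn1, Derl1, Derl2 and Derl3. The median of all genes was 0.00, -0.09 and 0.45 on slides 1, 2 and 3, and on slide 3 Dnajb9, at 0.21, and Os9, at 0.36, lay below it. Pdia6 has no value on slide 2.

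Over the 30 genes the median Gr1+ difference was 0.40, with 28 positive, against -0.04 over all genes, of which 44.64% were positive. With slide as a block the medians were 0.21 and 0.19, a gap of 0.020. After quantile normalization they were 0.24 and -0.07, and with arrays scaled to their medians 0.42 and -0.02. Within slides the members' median was 0.40 on slide 1, 0.03 on slide 2 and 0.11 on slide 3, against 0.00, -0.09 and 0.45 for all genes. Without the 4 compressed arrays the medians were 0.26 and 0.07. Positive differences numbered 23 of 30 with slide as a block, 24 without the compressed arrays, 25 after quantile normalization and 28 with array medians.

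Kit-Gr1- and Gr1+ cells were also compared with each other. In the fit over all arrays 0 of 30 genes were called, against 0.564% of all genes higher in Kit-Gr1- cells and 1.03% lower. An unadjusted p under 0.05 in limma was found for 4 of the 30, against 2305 of all 32463 genes. Kit-Gr1- arrays lay below all Gr1+ arrays for 9 genes (Dnajb9, Pdia4, Ern1, Wfs1, Edem1, Edem2, Sel1l, Derl3 and Os9), against 14% of all genes. They lay above them for 1, Derl1, against 13.2%, and that gene overlapped after quantile normalization. Quantile-normalized values gave 10 lower, against 10.6%, and 0 higher, against 16%. Edem2 differed by -0.85 ± 0.30 (SE, adjusted p = 0.324), Wfs1 by -0.87 ± 0.33 (adjusted p = 0.428), Dnajb9 by -0.68 ± 0.27 (adjusted p = 0.493) and Pdia4 by -0.89 ± 0.40 (adjusted p = 0.666). All 4 were negative within slides 1, 2 and 3. Derl3, a derlin known from secretory tissues, had the largest difference, -0.98 ± 0.69 (SE, adjusted p = 0.946), with -1.75, -1.98 and -3.02 in Kit-Gr1- cells and -1.04, -1.70 and -1.08 in Gr1+ cells. This comparison and the one against Kit+Gr1- cells share the Gr1+ arrays. The median over the 30 genes was 0.00, against -0.22 over all genes, -0.08 against 0.07 after quantile normalization, and -0.07 against -0.16 without the compressed arrays.

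Within the Kit+Gr1- cells, the Sca1hi fraction was compared with the Sca1lo fraction. No member was called, against 0% of all genes in either direction. An unadjusted p under 0.05 in limma was found for 0 of the 30, against 55 of all 32463 genes. The median difference was -0.28, with 6 of 30 positive, against -0.01 over all genes. Without the 4 compressed arrays, which include replicate 3 of both fractions, it was -0.12, against -0.10 over all genes. Leaving out Sca1hi replicate 3 alone gave -0.05, against -0.19 over all genes, and leaving out Sca1hi replicate 2 gave -0.48, against 0.18. The order of the members and all genes thus depended on the array left out. With slide as a block the medians were -0.56 and 0.09, and after quantile normalization -0.135 and -0.060. On the values scaled to the 75th percentile Ern1 alone had arrays that did not overlap, with 0.04, -0.01 and -0.13 in Sca1hi cells and 0.20, 0.08 and 0.30 in Sca1lo cells, against 1.68% of all genes lower and 1.41% higher. Its difference was -0.22 ± 0.22 (SE, adjusted p = 1). On quantile-normalized values the Sca1hi arrays lay below the Sca1lo arrays for 9 of the 30 genes (Hyou1, Sdf2l1, Manf, Creld2, Canx, Pdia6, Ern1, Syvn1 and Ssr1), against 4.04% of all genes, and above them for 0, against 3.12%. The 9 differences on that scale lay between -0.38 and -0.069.

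The genes whose promoter window holds ERSE and those without it did not share an order across the comparisons. In Kit-Gr1- against Kit+Gr1- cells the 9 genes with ERSE had a median difference of 0.49, between -0.56 and 0.73, and the 17 genes with a window but no ERSE a median of 0.19, between -0.30 and 0.60. In Gr1+ against Kit+Gr1- cells the medians were 0.38 with ERSE, between -0.07 and 0.51, and 0.50 without it, between -0.12 and 1.36. The 8 genes with the largest Gr1+ differences, Pdia4, Edem1, Os9, Edem2, Dnajb9, Wfs1, Sdf2l1 and Sel1l, all have windows without ERSE. That number was chosen after the order was seen, and the next gene, Syvn1, holds ERSE and differed by 0.51, against 0.52 for Sel1l. These are descriptions with no test, and the ranges overlap in both comparisons.

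A wider list of 71 genes of the same pathway, of which 68 were measured, was read beside the 30. Its median difference was 0.25 in Kit-Gr1- against Kit+Gr1- cells, with 62 positive, and 0.24 in Gr1+ against Kit+Gr1- cells, with 50 positive, beside medians of -0.25 and -0.04 over all genes. After quantile normalization the list's medians were 0.06 and 0.17. In Gr1+ cells the list's median lay below that of all genes with slide as a block, at 0.06 against 0.19, and was 0.08 against 0.07 without the compressed arrays. In Gr1+ against Kit+Gr1- cells 1 of the 68 rose and 1 fell, against 1.38% of all genes higher and 0.625% lower, so that the share called was near that of all genes. Prdx4, a peroxiredoxin of the endoplasmic reticulum that uses hydrogen peroxide to form disulphides, fell in Gr1+ cells. It measured -0.30, -0.83 and -0.89 in Gr1+ cells, against 1.21, 1.12 and 0.59 in Sca1hi cells and 1.41, 1.01 and 0.97 in Sca1lo cells. The groups did not overlap, and the difference was -1.73 ± 0.22 (SE, adjusted p = 0.00174), called in 24 of 26 alternatives. Prdx4 measured 1.19, 0.84 and 0.98 in Kit-Gr1- cells, which was above Gr1+ cells by 1.68 ± 0.25 (SE, adjusted p = 0.00419), the single call among the 68 in that comparison, against 0.564% of all genes higher and 1.03% lower.

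Creb3l2, a membrane-bound transcription factor that is cut and released in the manner of ATF6, rose in Gr1+ cells by 1.25 ± 0.28 (SE, 2.37-fold, adjusted p = 0.0332). It measured -0.06, -0.24 and -0.72 in Gr1+ cells and -1.38, -0.635 and -1.10 in Kit-Gr1- cells. In Sca1hi cells it measured -1.78, -1.49 and -1.58, and in Sca1lo cells -1.84, -1.34 and -1.47. The Gr1+ arrays did not overlap the Kit+Gr1- arrays but did overlap the Kit-Gr1- arrays. The call was kept in only 12 of 26 alternatives and in 5 of the 14 that left out 1 array. Ero1a, the oxidase that recharges disulphide isomerases, was singled out after its values were seen. It measured 4.96, 5.40 and 4.43 in Gr1+ cells and 2.80, 4.54 and 3.88 in Kit-Gr1- cells. In Sca1hi cells it measured 1.54, 2.81 and 1.63, and in Sca1lo cells 1.96, 3.48 and 2.60. Here too the Gr1+ arrays overlapped the Kit-Gr1- arrays but not the Kit+Gr1- arrays. The difference from Kit+Gr1- cells was 2.59 ± 0.82 (SE), with an adjusted p of 0.187 over all arrays and 0.00175 over the sorted arrays. In Kit-Gr1- against Kit+Gr1- cells 0 of the 68 were called, against 0.0554% of all genes higher and 0.0123% lower. An unadjusted p under 0.05 in limma was found for 0 of the 68, against 658 of all 32463 genes.

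Marker genes of several blood lineages moved with the gates beside these results. The summed level of 8 neutrophil markers, on the log2 scale, was 2.43 to 6.12 in Kit-Gr1- cells, 10.1 to 10.7 in Gr1+ cells, 4.67 to 6.87 in Sca1hi cells and 5.59 to 7.56 in Sca1lo cells. That of 4 eosinophil markers was 6.76 to 8.14 in Gr1+ cells and at most 1.66 in the other sorted fractions. That of 7 erythroid markers, of 8 listed, was 4.69 to 5.58 in Kit-Gr1- cells and at most 2.50 in the others. Mast cell and basophil markers, 5 of 5 above background on all arrays of every group, summed to 6.93 to 8.16 in Kit-Gr1- cells, 7.61 to 8.73 in Gr1+ cells, 5.97 to 7.49 in Sca1hi cells and 6.12 to 6.98 in Sca1lo cells. Markers of B and plasma cells, 7 of 7 measured, summed to 0.29 to 0.62 in Kit-Gr1- cells and 0.52 to 0.88 in Gr1+ cells, against 0.42 to 1.52 in Sca1hi and 0.71 to 1.04 in Sca1lo cells. No marker of these lists was below background on every array of a group. The part of the cell types behind these markers in the Gr1+ and Kit-Gr1- differences was not tested.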

How the data were processed

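The deposited scanner files, 1 per array, hold spot intensity read with Agilent Feature Extraction 10.1.1.1 on an mm8 design, per the file headers. The processed intensity had its background subtracted by the authors' scanner software. The deposited series table holds log2 values, equal to the log2 of those intensities within 5e-09. Control spots and outlier spots were left out, spots of a probe averaged, and log2 values taken relative to each array's 75th percentile. A probe was kept if well above background on at least 3 of 14 arrays, and a gene is represented by its brightest kept probe. Symbols came from accessions for 23366 of 41174 probes. The 5 groups were fitted with limma 3.58.1 in R 4.3.3 (eBayes with a trend), with Benjamini-Hochberg adjustment over 32463 genes. The fit was also run on simulated arrays with independent noise of equal spread for all genes and arrays. These held no compressed arrays and no slide differences, so the run does not show how the fit performs with such features. Per-array values are given for textbook genes and for the largest difference of each role; 26 alternatives were run. The members and lists were chosen with earlier results of these data known. The local background was corrected in 1 alternative (normexp, offset 50), from the median signals of the spots in place of the planned mean signals.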

Additional observations from a re-analysis of the deposited data

How the results depend on the processing

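Relative to the fit over all arrays, which called 0 of the 30 genes in Gr1+ against Kit+Gr1- cells, array weights called 4, the sorted arrays alone 3, quantile normalization 1, and the fit without the 4 compressed arrays 2. Leaving out 1 array at a time gave 0 to 3, with 3 for either unfractionated replicate. No member was called in the other 3 comparisons under any alternative. Scaling to array medians moved the members' median to 0.62 for Kit-Gr1- against Kit+Gr1- cells and to 0.31 for Kit-Gr1- against Gr1+ cells. In the same setting the median of all genes moved to 0.07 and 0.08. Over all genes the calls, 22, 651, 517 and 0 in the order described, ranged from 0 to 767, 115 to 2190, 151 to 1956 and 0 to 15. Quantile-normalized values, an alternative added after the data were seen, gave 1 gene with Gr1+ arrays below Kit+Gr1- arrays, 0 with Kit-Gr1- arrays above Gr1+ arrays and 9 with Sca1hi arrays below Sca1lo arrays.

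Of 1456 values of 56 single results, 45 changed sign, all with differences that did not pass the test, and the cause was not tested. For Kit-Gr1- against Kit+Gr1- cells, unscaled series values gave -0.16 for Dnajb9, -0.048 for Ssr1, -0.13 for Calr, -0.17 for Xbp1 and -0.19 for Edem2. Slide as a block gave -0.090 for Dnajb9, -0.048 for Ssr1, -0.13 for Calr, -0.074 for Xbp1 and -0.036 for Edem2. Quantile normalization gave -0.060 for Ssr1, -0.15 for Calr, -0.13 for Xbp1, -0.019 for Edem2 and 0.12 for Wfs1. Without the 4 compressed arrays the values were -0.085 for Dnajb9, -0.0043 for Ssr1 and -0.059 for Calr. Array medians gave 0.023 for Ern1 and 0.17 for Wfs1, array weights 0.31 for Wfs1, and probe means -0.018 for Ssr1. Leaving out 1 array at a time gave -0.010 to 0.13 for Dnajb9, -0.39 to 0.22 for Wfs1, -0.083 to 0.40 for Calr, -0.053 to 0.24 for Xbp1 and -0.078 to 0.26 for Edem2.

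For Gr1+ against Kit+Gr1- cells, Sec61a1 was -0.070 with array weights, -0.12 unscaled, -0.024 with probe means, -0.11 after quantile normalization and without the compressed arrays, -0.17 with the slide block and -0.085 to 0.19 with 1 array left out. Ern1 was -0.14 unscaled and -0.12 to 0.16 with 1 array left out. Ufm1 was -0.010 unscaled and -0.045 without the compressed arrays. For Kit-Gr1- against Gr1+ cells, Sel1l was 0.061 with array medians.

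With replicate number as a block, 1 of the 30 genes, Pdia4, was called in Gr1+ against Kit+Gr1- cells, and 793 genes in all. Whether the numbers pair the samples was not tested. Deviations of same-numbered arrays correlated above 0.1 in 14 of 18 pairs, with a median of 0.413 and the lowest at -0.231. Those of arrays with other numbers did so in 11 of 36 pairs, with a median of -0.105. Arrays on the same slide did so in 11 of 13 pairs, with a median of 0.206, and arrays on other slides in 14 of 41, with a median of -0.0754. All sorted arrays numbered 1 lay on slide 1, so number and slide cannot be fully told apart.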
